A study of Mus musculus with 4 samples.

Results

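Neuropeptide precursor genes encode the secreted proteins from which neurons cut short signalling peptides. The 10 genes described here are Penk, Npy, Grp, Tac2, Gal, Pdyn, Sst, Vip, Cort and Cck, out of 12393 genes on the array. They were taken by name, with earlier results of these data known, and every probe set annotated to their symbol alone was used. This gave 1 probe set for each gene, and no probe set annotated to several genes named any of them. Their signals were followed in the mouse dentate gyrus (DG) after electroconvulsive stimulation (ECS), an animal model of electroconvulsive therapy.

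The dentate gyrus of C57Bl/6 mice was dissected 1 h after a sham session, 1 h after a single ECS, 48 h after 10 ECS and 1 h after 11 ECS. Each group was 1 Affymetrix Mouse Genome 430A 2.0 array, hybridised with RNA pooled from 3 mice. By the study's methods the mice were males bought at 8 weeks of age, of the substrains C57BL/6J or C57BL/6N. ECS was a 25 mA current of 1 s through ear clips under isoflurane, with 100 pulses per s of 0.5 ms, in at most 3 weeks of 4 sessions each. In each session all mice were anaesthetised and handled alike, and sham mice received no current. The sham and single ECS groups had 1 session, whereas the others had 10 or 11 ECS. Ratios over the course thus hold earlier current together with repeated anaesthesia, handling and time, which cannot be told apart. The study's description has every group dissected 1 h after a last sham or ECS session, so that the 48 h group had a sham session after its 10 ECS. For 3 of the 4 samples the description field gives a treatment that differs from the title, and the titles were followed here. In such tissue, fewer cells of a type and less RNA per cell cannot be told apart.

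With 1 array per group no spread between mice or arrays can be measured, and no test was made. A signal is the linear intensity in units of the MAS5 software, and a ratio is given on the log2 scale or as a fold. A floor was set at 12 units, the 25th percentile over all probe sets and arrays, and lower signals were taken as 12. A ratio with 1 array at that floor is a bound, written as at least N-fold. The only error available was the spread of log2 ratios between probe sets of the same gene elsewhere on the array, with pooled SDs of 0.274 to 0.307 in the 5 comparisons. Probes of different genes bind with different strength, so levels are not compared between genes, and a summed signal of a marker list is set mainly by its brightest probe sets.

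The 4 arrays had median signals of 56.3 to 69.3 and held 73.88% to 76.67% of probe sets above the floor. The 3'/5' signal ratio of the Gapdh control probes was 0.963 to 1.06 and that of the Actb control probes 1.91 to 1.95. Of 8 marker genes fixed for mature granule cells, the principal neurons of the dentate gyrus, 7 were on the array, and all 7 were above the floor on all arrays. All 3 markers of mossy cells, 3 of CA3 and 2 of CA1 pyramidal cells on the array were also above the floor on all arrays. So were all 8 listed as glia, 11 of 13 interneuron markers and 7 of 9 markers of choroid plexus or meninges. Over all genes 8999 of 12393 were above it on all arrays, so these counts alone do not show that a cell type was present. Mbp of oligodendrocytes was bright, at 4521.5 to 5089.4, so the dissected tissue held RNA of other cells as well.

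Neuropeptides are made as precursors, cut by proprotein convertases in the secretory pathway, stored in dense-core vesicles and released mainly during strong firing, to act on G protein-coupled receptors. In the hippocampus, somatostatin, neuropeptide Y, vasoactive intestinal peptide, cholecystokinin and cortistatin are best known from subsets of GABAergic interneurons, while dynorphin and enkephalin are found in granule cells and their mossy fibre axons. After seizures in rodents, neuropeptide Y and enkephalin are also known to appear in granule cells.

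Promoter sequences were matched by symbol in RefSeq for build GRCm38.p6. There were entries for 8 of the 10 genes, with 9 promoters, and those of Npy, Gal and Tac2, which stood higher after the ECS course, are shown beside that of Sst, which did not. The promoters lie at chr6:49822460-49822709 on the plus strand for Npy, at chr19:3414545-3414794 on the minus strand for Gal, at chr10:127724228-127724477 on the plus strand for Tac2 and at chr16:23890845-23891094 on the minus strand for Sst. Each is the 250 bases before the start of the gene, 5′ to 3′, with matches to the cAMP response element (CRE), the AP-1 site, the Egr site and the TATA box in capitals.
Npy: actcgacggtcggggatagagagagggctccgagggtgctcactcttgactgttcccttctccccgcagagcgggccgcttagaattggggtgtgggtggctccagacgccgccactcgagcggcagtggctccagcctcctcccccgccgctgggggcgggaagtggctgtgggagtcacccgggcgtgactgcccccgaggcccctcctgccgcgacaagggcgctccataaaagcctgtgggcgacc
Gal: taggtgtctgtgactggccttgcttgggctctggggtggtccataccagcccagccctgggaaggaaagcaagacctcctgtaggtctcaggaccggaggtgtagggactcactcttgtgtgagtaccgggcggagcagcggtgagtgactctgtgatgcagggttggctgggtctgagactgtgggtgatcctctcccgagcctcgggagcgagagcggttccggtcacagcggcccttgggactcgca
Tac2: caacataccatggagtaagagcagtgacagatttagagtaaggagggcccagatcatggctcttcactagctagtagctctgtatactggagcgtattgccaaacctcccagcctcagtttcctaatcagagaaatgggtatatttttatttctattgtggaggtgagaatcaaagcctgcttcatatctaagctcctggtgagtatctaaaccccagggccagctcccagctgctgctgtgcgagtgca
Sst: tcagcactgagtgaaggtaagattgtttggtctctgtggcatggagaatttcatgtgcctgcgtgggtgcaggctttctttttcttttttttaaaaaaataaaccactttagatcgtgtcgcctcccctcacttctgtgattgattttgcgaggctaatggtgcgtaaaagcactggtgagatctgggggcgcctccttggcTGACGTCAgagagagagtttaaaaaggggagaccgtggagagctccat

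The capitals in the Sst promoter are the full CRE, TGACGTCA, which began 48 bases before the start and is the kind of element that the transcription factor CREB binds. Both strands were searched over 300 bases, 250 before and 50 after the start. A full CRE was in 1 of the 9 promoters, that of Sst, and in 1.79% of all 32851 promoters of the table. Its shorter core, TGACG, which the full CRE contains, was in 5 of the 9, those of Sst, Vip, Cck, Cort and Gal, and in 20.8% of all promoters. In Gal the core lay after the start, outside the stretch shown. The AP-1 site TGANTCA (7.81% of all promoters) and the Egr site GCGNGGGCG (5.55%) were in 0 of the 9. The TATA box TATAAA was in 1 of the 9, that of Vip (13.6% of all), and the E-box CANNTG in 4 of the 9 (72.3% of all). A match describes letters in this window and no more.

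**Figure D1:**
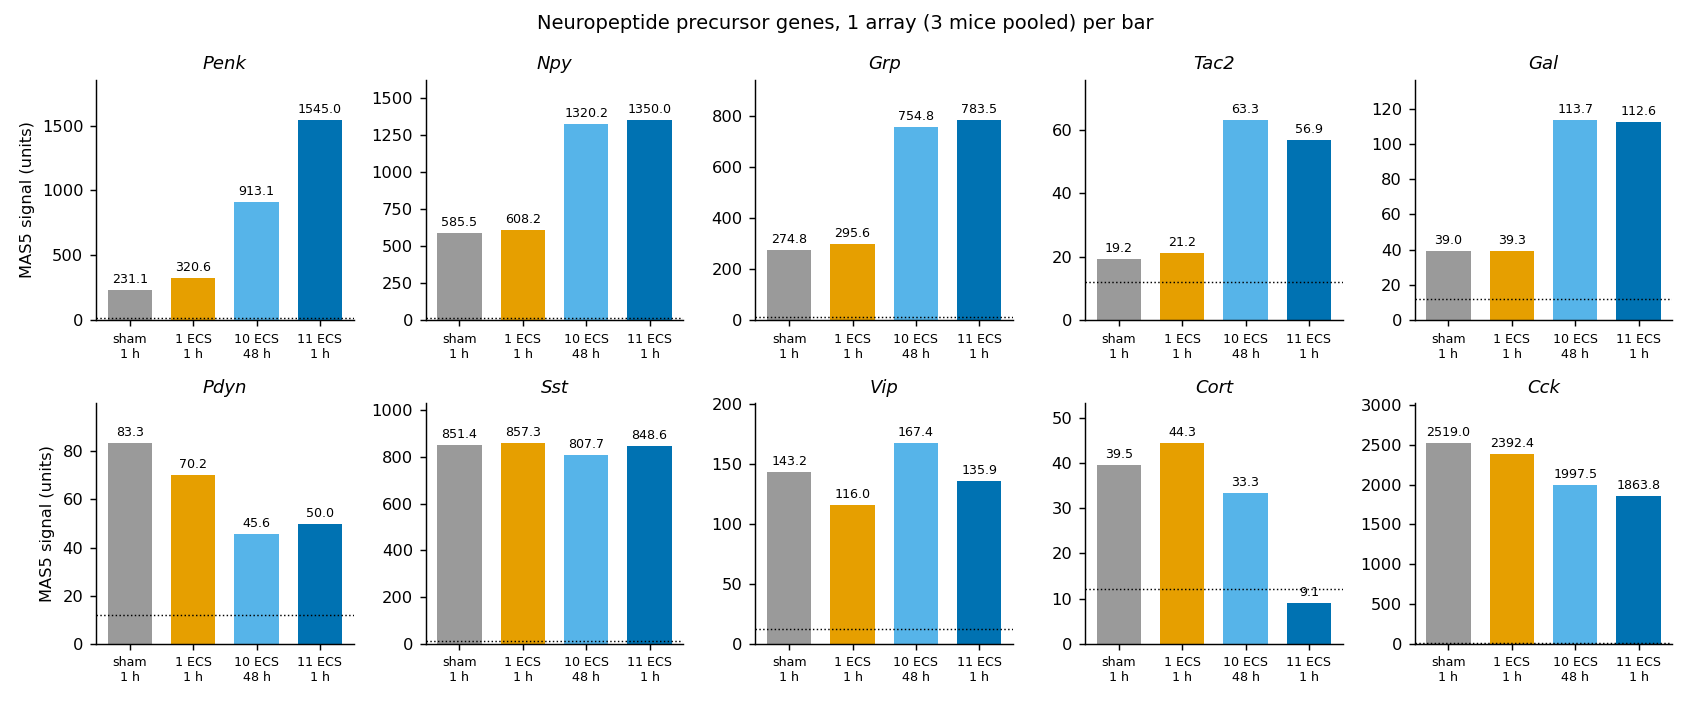
MAS5 signal (linear units, axis starting at 0 and differing between panels) of each of the 10 genes on the 4 arrays, with the floor of 12 as a dotted line. Penk, Npy, Grp, Tac2 and Gal are high on both arrays that followed 10 or 11 ECS, Pdyn is low on both, and Cort is under the floor on the 11 ECS array.

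The opioid precursors Penk and Pdyn differed in opposite directions over the ECS course. Penk, the precursor of the enkephalins, had signals of 231.1 in the sham, 320.6 in the single ECS, 913.1 in the 10 ECS and 1545.0 in the 11 ECS array. It was the only one of the 10 genes that was higher at 1 h by more than the probe set SD after both the single and the 11th ECS. At 1 h, Penk was 1.39-fold higher in the single ECS than in the sham array and 1.69-fold higher in the 11 ECS than in the 10 ECS array. The log2 ratios of 0.47 and 0.76 ranked 417 of 10133 and 204 of 10046 genes from the highest. The central 95% of all genes ended at 0.66 after the single ECS and at 0.70 after the 11th, so Penk lay inside this range in the first case and just outside it in the second.

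Over the course the Penk ratios were larger. It was 3.95-fold higher in the 10 ECS than in the sham array (rank 6 of 10202 genes), 4.82-fold higher in the 11 ECS than in the single ECS array (rank 2 of 9971), and 6.69-fold higher in the 11 ECS than in the sham array (rank 10 of 10136). The pairs 10 ECS with sham and 11 ECS with single ECS have no array in common. Over the mean of these 2 pairs Penk was 4.36-fold higher, at rank 2 of 8999 genes above the floor on all arrays.

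Pdyn, the precursor of the dynorphins, had signals of 83.3 in the sham, 70.2 in the single ECS, 45.6 in the 10 ECS and 50 in the 11 ECS array. Both arrays after repeated ECS were lower than both others. It was 1.83-fold lower in the 10 ECS than in the sham array (log2 ratio −0.87, against −0.85 at the lower end of the central 95% of all genes). In the 11 ECS array it was 1.40-fold lower than in the single ECS array, a log2 ratio of −0.49 that lay well inside the range of all genes. The acute log2 ratios of Pdyn were −0.25 for single ECS over sham and 0.13 for 11 ECS over 10 ECS, both smaller than the probe set SD, and the first turned to 0.05 when arrays were scaled to the same median.

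In the signals as deposited, Npy, Grp, Tac2 and Gal shared a stepwise pattern. They differed at least 2-fold over the course and little 1 h after a session. After scaling to the same median, their log2 ratios for single ECS over sham were 0.35, 0.405, 0.44 and 0.31. These exceeded the probe set SD of 0.287. Those for 11 ECS over 10 ECS were then 0.17, 0.19, −0.02 and 0.12. Npy, the precursor of neuropeptide Y, a peptide that lowers glutamate release, had signals of 585.5, 608.2, 1320.2 and 1350.0 in the sham, single ECS, 10 ECS and 11 ECS arrays. Its ratios were 2.25-fold for 10 ECS over sham and 2.22-fold for 11 ECS over single ECS, at ranks 44 and 48. The acute ratios of Npy were 1.04-fold after the single and 1.02-fold after the 11th ECS.

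Grp, the precursor of gastrin-releasing peptide, a bombesin-like peptide, had signals of 274.8, 295.6, 754.8 and 783.5 in the same order of arrays. It was 2.75-fold higher in the 10 ECS than in the sham array and 2.65-fold higher in the 11 ECS than in the single ECS array, at ranks 16 and 24. The acute ratios were 1.08-fold and 1.04-fold. Both arrays after repeated ECS were thus above both others, and as deposited the arrays within each of these pairs differed little.

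Gal, the precursor of galanin, an inhibitory peptide of many brain stem and hypothalamic neurons, had lower signals of 39.0, 39.3, 113.7 and 112.6 in the same order. It was 2.92-fold higher in the 10 ECS than in the sham array and 2.87-fold higher in the 11 ECS than in the single ECS array, at rank 13 in each. The acute log2 ratios of Gal were 0.01 and −0.01, among the smallest of the 10 genes.

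Tac2, the precursor of neurokinin B, a tachykinin, had signals of 19.2, 21.2, 63.3 and 56.9 in the same order, and those of the sham and single ECS arrays were close to the floor. It was 3.30-fold higher in the 10 ECS than in the sham array and 2.68-fold higher in the 11 ECS than in the single ECS array, at ranks 7 and 21. With a floor of 50 units the log2 ratios of Tac2 were 0.34 and 0.19, no longer 2-fold, since sham and single ECS then stood at the floor. Those of Gal were 1.19 and 1.17.

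The peptides best known from interneurons other than Npy stayed within 2-fold, with the exception of Cort on a single array. Sst, the precursor of somatostatin, had signals of 851.4, 857.3, 807.7 and 848.6 in the sham, single ECS, 10 ECS and 11 ECS arrays. As deposited, its log2 ratios were between −0.08 and 0.07 in all 5 comparisons, under the probe set SD. After scaling to the same median the ratio for single ECS over sham was 0.31, above the probe set SD of 0.287. Sst and Npy are made together in many hilar interneurons. Here Npy was more than 2-fold higher after the course and Sst was not. Which cells gave either signal was not tested.

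Vip, the precursor of vasoactive intestinal peptide, had signals of 143.2, 116.0, 167.4 and 135.9 in the same order. It was 1.23-fold lower in the single ECS than in the sham array and 1.23-fold lower in the 11 ECS than in the 10 ECS array. For 10 ECS over sham, and likewise for 11 ECS over single ECS, it was 1.17-fold higher. The acute log2 ratios of −0.30 were near the probe set SDs of 0.287 and 0.274, and the first was −0.0042 after scaling to the same median, so that no direction is given for it.

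Cck, the precursor of cholecystokinin, had signals of 2519.0, 2392.4, 1997.5 and 1863.8, and its probe set reads several transcripts of the gene by the array's naming (suffix a_at). It was 1.26-fold lower in the 10 ECS than in the sham array and 1.28-fold lower in the 11 ECS than in the single ECS array. Its acute log2 ratios were −0.07 and −0.10, and the first was 0.23 after scaling to the same median.

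Cort, the precursor of cortistatin, a relative of somatostatin, had signals of 39.5, 44.3, 33.3 and 9.1. The last lay under the floor, so Cort in the 11 ECS array was at least 2.77-fold lower than in the 10 ECS array, at least 3.69-fold lower than in the single ECS array and at least 3.29-fold lower than in the sham array. The bound against single ECS was the 3rd lowest value of 9971 genes. The log2 ratio of 10 ECS over sham was −0.25, within the probe set SD. The low value thus stood on 1 array and 1 dim probe set.

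**Figure D2:**
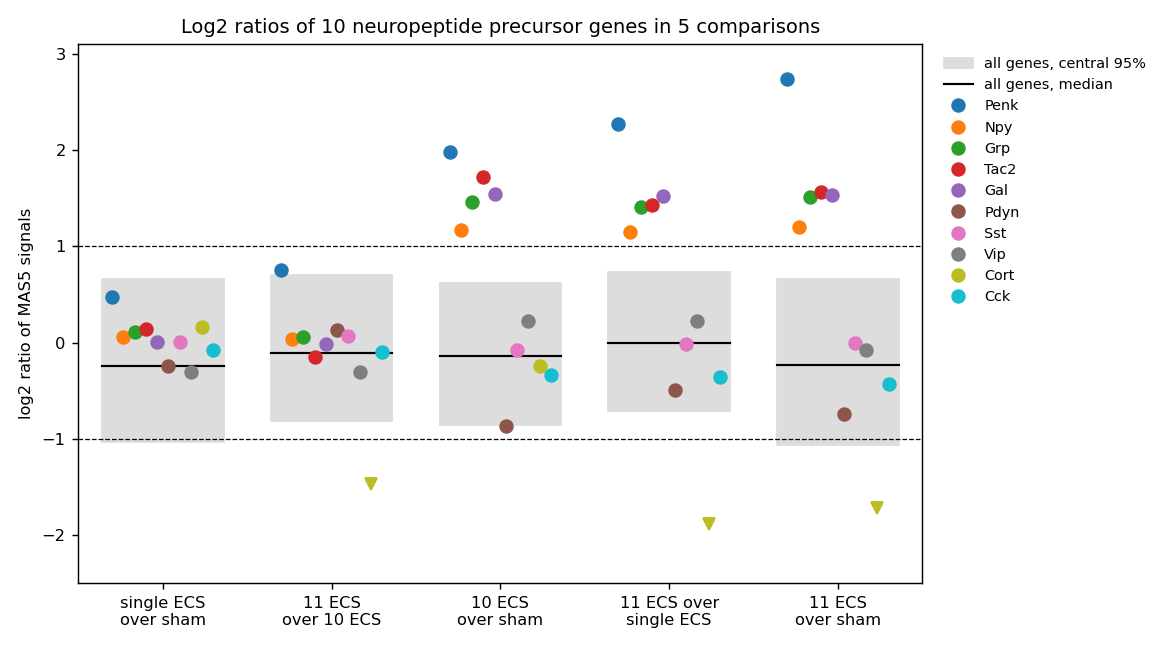
Log2 ratio of each of the 10 genes (coloured points, with triangles for bounds of Cort) in the 5 comparisons, with the central 95% of all genes in grey, their median as a black line, and 2-fold as dashed lines. Penk, Npy, Grp, Tac2 and Gal lie above the grey range in the 3 comparisons that set 10 or 11 ECS against sham or single ECS, and Penk lies just above it for 11 ECS over 10 ECS.

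Counts of the 10 genes past 2-fold are sizes and not tests, and are given beside the share of all genes. Because the 10 were chosen with earlier results of these data known, these shares cannot serve as a test of the group. In 10 ECS over sham, 5 were at least 2-fold higher and 0 lower, against 0.716% and 1.22% of 10202 genes. In 11 ECS over single ECS, 5 were higher and 1 lower, against 0.832% and 0.782% of 9971 genes. In 11 ECS over sham, 5 were higher and 1 lower, against 1.1% and 3.11% of 10136 genes. The 5 higher genes were Penk, Npy, Grp, Tac2 and Gal in each, and the lower gene was Cort with its bound.

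At 1 h after a session the counts were lower. In single ECS over sham, 0 were at least 2-fold higher and 0 lower, against 1.2% and 2.89% of 10133 genes. In 11 ECS over 10 ECS, 0 were higher and 1, Cort, was lower, against 1.06% and 1.21% of 10046 genes. The 5 comparisons share arrays. Single ECS over sham, 10 ECS over sham and 11 ECS over sham have the sham array in common, and 11 ECS over 10 ECS shares the 10 ECS array with 10 ECS over sham.

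The median log2 ratio of the 10 genes was 0.70 for 10 ECS over sham, 0.69 for 11 ECS over single ECS and 0.60 for 11 ECS over sham, against −0.14, 0.0006 and −0.23 for all genes. It was 0.03 for single ECS over sham and 0.01 for 11 ECS over 10 ECS, against −0.24 and −0.11 for all genes. Since the arrays differed in median signal, scaling them to the same median moved the median of all genes for single ECS over sham to 0.05. Relative to all genes, the median of the 10 was 0.27 as deposited and 0.28 after scaling in that comparison, and 0.83 and 0.84 in 10 ECS over sham. The same scaling changed the split of all genes past 2-fold. It was 122 higher and 293 lower as deposited and 216 higher and 91 lower after scaling for single ECS over sham. For 11 ECS over sham it was 111 and 315 as deposited and 207 and 119 after scaling, for 11 ECS over 10 ECS 106 and 122 as deposited and 153 and 79 after scaling, and for 10 ECS over sham 73 and 124 as deposited and 95 and 75 after scaling. The counts of the 10 genes were the same under both scalings tried.

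The pairs that share no array allow the ratios of each gene to be set side by side. All 5 genes that were at least 2-fold higher in 10 ECS over sham were also at least 2-fold higher in 11 ECS over single ECS. Over all genes 73 met this limit in the first pair and 83 in the second, and 23 met it in both, which is 31.5% of those in the first pair and 27.7% of those in the second. These 5 genes are among the 23.

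The difference between the response to the 11th and to the single ECS, which equals the difference between these course ratios, depended on the scaling of the arrays. In the signals as deposited it was 0.29 on the log2 scale for Penk, −0.30 for Tac2 and 0.38 for Pdyn. For Npy, Grp, Gal, Sst, Vip and Cck it lay between −0.05 and 0.06 as deposited, and between −0.21 and −0.10 after scaling to the same median. The median size over the 9 genes above the floor on all arrays was 0.051, against 0.211 over 8999 genes, but after this scaling it was 0.187 against 0.181. Taken relative to the median of all genes, which was 0.13 as deposited, it was 0.16 against 0.179, so the 9 genes were not set apart. For Penk the difference was 0.13 after scaling, and under both settings it was smaller than the probe set SD of this difference, 0.353.

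**Figure D3:**
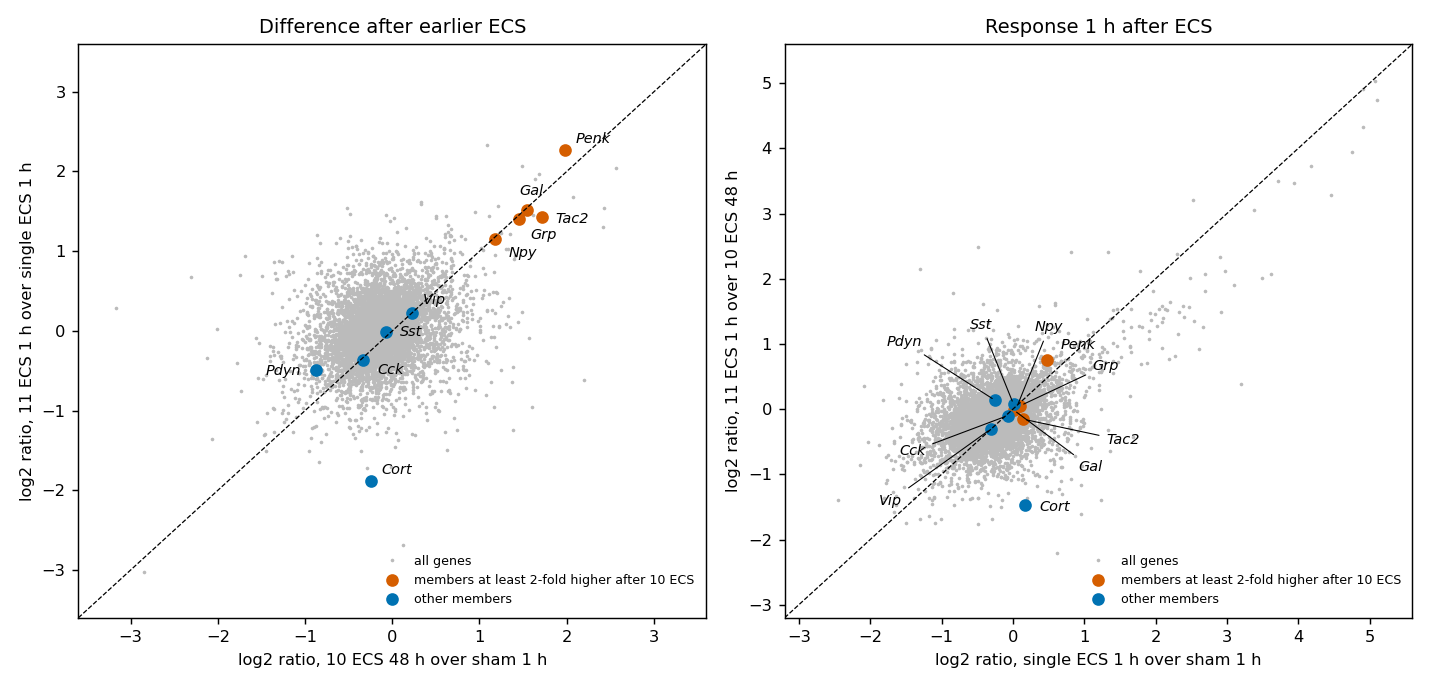
Log2 ratios of all genes (grey) and of the 10 neuropeptide precursor genes (orange, at least 2-fold higher in 10 ECS over sham, and blue, others) in pairs of arrays that share none, with the line of equal ratios dashed. In the left panel Penk, Npy, Grp, Tac2 and Gal lie near this line between 1.15 and 2.27, and in the right panel all but Penk and Cort lie near 0, with Cort plotted at its bound in the 11 ECS array.

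Likeness of pattern was measured as the Euclidean distance over the 3 log2 ratios to sham, across the 7771 genes that exceeded the floor on every array and reached 48 units on at least 1. Gal and Grp were each other's nearest gene, at a distance of 0.13. Gal, Grp and Tac2 each had the other two among their 3 nearest genes, and the remaining place was taken by Igfbp6, which encodes a binding protein of insulin-like growth factors. Igfbp6 had signals of 37.6, 40.8, 115.3 and 111.8 in the sham, single ECS, 10 ECS and 11 ECS arrays and lay 0.11 from Tac2.

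The nearest genes to Npy were Tmsb10, for an actin-binding thymosin, at 0.09, Col1a2, for a collagen chain, at 0.19 and Pcolce, for a collagen-processing enhancer, at 0.20. Penk had no such close neighbour, and its nearest were Col6a1 at 0.62 and Col3a1 at 0.76, both for collagen chains, and Pkmyt1, for a kinase of the cell cycle, at 0.97. Col3a1 had signals of 17.9, 21.3, 105.9 and 88.1 in the same order of arrays, and Col1a2 signals of 59.0, 60.6, 150.8 and 141.2. With 3 ratios that share 1 sham array these distances are a description.

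Since collagen genes are expressed by cells of the meninges and vessels, the whole list fixed for choroid plexus and meninges is given here. Of 10 markers 9 were on the array, and their summed signal was 762.4 in the sham, 697.4 in the single ECS, 523.4 in the 10 ECS and 449.2 in the 11 ECS array. Its members did not move alike. In the same order of arrays, Ogn was 240.7, 175.8, 33.4 and 21.5, Kl 74.3, 38.4, 26.6 and 25.2, Igf2 142.7, 75.4, 72.4 and 87.4, and Slc6a13 33.8, 16.6, 23.9 and 13.6. Ttr was 67.2, 215.9, 103.4 and 76.9, and Folr1, near the floor, 14.7, 10.9, 16.7 and 13.9. These 6 did not show the course pattern of the 5 higher genes. Dcn was 86.2, 87.6, 131.6 and 122.7, Lum 98.7, 66.6, 88.5 and 67.9, and Col1a1, under the floor in the sham and single ECS arrays, 4.1, 10.2, 26.9 and 20.1. Dcn and Col1a1 were thus higher on both arrays after repeated ECS than on both others, and Lum was not. In 10 ECS over sham 1 of the 9, Col1a1, was at least 2-fold higher and 2, Ogn and Kl, were lower. The part of such cells in the signals of the 10 genes was not tested.

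Marker signals of granule cells and of other cell types were as follows. The summed signal of 7 granule cell markers was 6419.2, 4870.5, 3654.6 and 2750.4 in the sham, single ECS, 10 ECS and 11 ECS arrays, most of it from Calb1 (3234.2, 2747.1, 1507.0 and 1303.6) and Dsp (1701.6, 1125.4, 992.8 and 582.3). Prox1, the transcription factor of granule cell identity, was 68.6, 69.8, 57.1 and 62.7, and Stxbp6 went the other way, at 191.3, 209.9, 214.6 and 263.8. The sum of 13 interneuron markers, among them Gad1 and Gad2 for the enzymes of GABA synthesis, was 5466.1, 4938.0, 4801.4 and 4843.2, most of it from Gad1 (3375.7, 3081.1, 2940.3 and 3052.4). Of 12 interneuron markers measured in 10 ECS over sham, 0 were past 2-fold, against 0.716% of all genes higher and 1.22% lower. Their median log2 ratio was −0.29, that of all genes −0.14 and the ratio of Npy 1.17. The 8 markers listed as glia summed to 7891.8, 7120.7, 8013.9 and 8022.0, with Mbp of oligodendrocytes as the brightest. Gfap of astrocytes had signals of 49.3, 45.6, 114.1 and 135.0. The list also holds Cldn5, a marker of vessel endothelium and not of glia, with 126.4, 178.2, 183.5 and 193.4. In 10 ECS over sham 3 of the 8 had log2 ratios above 0, and the median was −0.04. The 3 genes listed for mossy cells were Calb2 (290.1, 318.7, 364.8 and 385.2), Drd2 (12.9, 18.9, 23.2 and 29.4) and Calcrl (103.9, 74.3, 80.1 and 57.3). Calb2 encodes calretinin, which the study used as a marker of immature granule cells. The study reported more of it in the subgranular zone after repeated ECS, so Calb2 is not particular to mossy cells. CA3 markers on the array were Coch (30.9, 29.5, 54.6 and 48.1), Bok (600.6, 568.5, 697.0 and 699.9) and Iyd (79.3, 68.1, 71.5 and 57.9). In 10 ECS over sham the median log2 ratios were 0.33 (mossy cell, the ratio of Calb2), 0.21 (CA3) and −0.19 (CA1), with 0 past 2-fold. The part of these cells in the peptide signals was not tested.

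With signals under the floor taken as 12, fewer of the other peptide precursors than of the 10 genes passed 2-fold over the course. Few of all genes did. Both lists were chosen with earlier results of these data known, so this contrast is a description and not a test. Of 44 further precursor genes listed, 29 were on the array and 9 of these were at the floor on all arrays. In 10 ECS over sham 19 had a ratio, and 0 of these ratios were past 2-fold in either direction. Their median on the log2 scale was −0.08. The ratios of Pyy, Ghrl, Nmu, Gast, Npvf, Calcb and Npff are bounds, each with 1 array under the floor, and may exceed 2-fold. In 11 ECS over single ECS 1 of 16, Sct for secretin, was higher and 1, Nppc for C-type natriuretic peptide, was lower. The shares of all genes were 0.832% and 0.782%. In 11 ECS over 10 ECS 1 of 18, again Sct, was higher, against 1.06% of all genes. These 16 and 18 also include bounds. Sct was dim, at 27.6, 15.5, 15.2 and 35.7. Tac1, which encodes substance P and is the tachykinin relative of Tac2, had signals of 317.7, 374.7, 267.9 and 230.7 in the sham, single ECS, 10 ECS and 11 ECS arrays. Pomc, the third opioid precursor beside Penk and Pdyn, had 69.6, 83.4, 46.9 and 42.7, the last 1.95-fold lower than in the single ECS array. Its dimmer probe set had 38.8, 48.9, 24.6 and 12.1. Nppc was 2.68-fold lower in the 11 ECS array, at 19.3, than in the sham array, at 51.7.

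The machinery that sorts and cuts precursors was within 2-fold in all 5 comparisons of the signals as deposited. Of 14 granins and processing enzymes 12 were on the array, and 0 of 12 passed 2-fold. Over all genes 0.716% to 3.11% did so in a given direction and comparison. Scg2, the precursor of secretoneurin, had the largest acute ratios, with signals of 1892.3, 3026.2, 2151.3 and 3563.2, so that it was 1.60-fold higher in the single ECS than in the sham array and 1.66-fold higher in the 11 ECS than in the 10 ECS array. In 11 ECS over sham Scg2 was 1.88-fold higher, and after scaling to the same median 2 of the 12, Scg2 and Pcsk1, were past 2-fold there. Pcsk1, for a convertase that cuts peptide precursors, was dim, with signals of 18.6, 27.8, 20.2 and 33.3. Chgb, for a granin of the vesicle core, had signals of 4747.6, 5351.1, 5459.8 and 5955.9. In 10 ECS over sham the 12 lay between −0.07 and 0.22 on the log2 scale, with the brightest probe set of each. Cpd, for a carboxypeptidase, had 5 probe sets that disagreed, from −0.64 to 0.21, and the one used had 0.13.

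Receptors for the 10 peptides were mostly dim. Of 20 listed, 19 were on the array, 6 were above the floor on all arrays, and 8 were at the floor on all, namely Oprd1, Tacr3, Galr1, Galr2, Sstr1, Sstr3, Vipr1 and Cckar. Receptors of galanin and of neurokinin B, whose precursors Gal and Tac2 were higher after the course, were thus at the floor or, as with Galr3, had no probe set of their own. In 10 ECS over sham 11 receptors had a ratio, but those of Oprm1, Oprk1, Sstr4 and Vipr2 are bounds that may exceed 2-fold. In 11 ECS over single ECS 10 had a ratio, and those of Oprm1, Grpr and Sstr4 are bounds. The others were within 2-fold in both. Over all genes 0.716% and 0.832% were at least 2-fold higher and 1.22% and 0.782% lower in these comparisons.

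Among the receptors of neuropeptide Y, Npy5r and Npy2r were lower at 1 h after ECS. Npy5r had signals of 427.6, 141.1, 277.9 and 169.6 in the sham, single ECS, 10 ECS and 11 ECS arrays. It was 3.03-fold lower in the single ECS than in the sham array and 1.64-fold lower in the 11 ECS than in the 10 ECS array. Its dimmer probe set, at 127.0, 31.2, 72.7 and 47.0, had the same order of arrays.

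Npy2r, a presynaptic receptor, had signals of 816.2, 403.7, 958.4 and 440.5, with both arrays at 1 h after ECS below both others. It was 2.02-fold lower in the single ECS than in the sham array and 2.18-fold lower in the 11 ECS than in the 10 ECS array, with log2 ratios of −0.72 and −0.98 after scaling to the same median. Npy1r had 137.3, 81.9, 107.3 and 136.9. As deposited, Npy itself thus differed over the course and little at 1 h. Npy2r differed at 1 h and by a log2 ratio of 0.23 in 10 ECS over sham.

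Sstr2, a somatostatin receptor, had signals of 104.1, 142.6, 140.9 and 210.1. It was 2.02-fold higher in the 11 ECS than in the sham array, while Sst was 848.6 in the 11 ECS and 851.4 in the sham array.

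**Figure D4:**
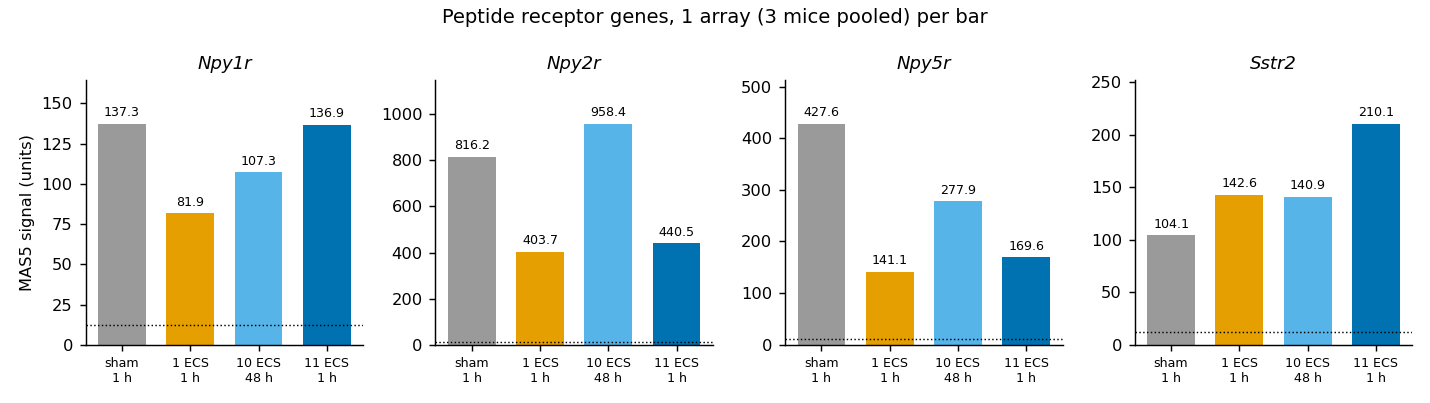
MAS5 signal (linear units, axis starting at 0 and differing between panels) of 3 neuropeptide Y receptor genes and of Sstr2 on the 4 arrays, with the floor of 12 as a dotted line. Npy2r is low on both arrays taken 1 h after ECS (403.7 and 440.5), and Sstr2 is highest on the 11 ECS array (210.1).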

How the data were processed

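Total RNA of the dentate gyrus was pooled from 3 mice per group, and 100 ng was amplified by the authors with a 3' in vitro transcription kit and hybridised to 4 arrays. The authors summarised each probe set of an array into a deposited intensity signal, which is linear and not logged, with the MAS5 algorithm named in the submitters' processing notes. Whether arrays were scaled to a target is not stated there, and values were used as deposited. The number of arrays, 1 per group, limits the precision. Beside 64 controls there were 22626 probe sets, of which 20380 had a single gene symbol in the array's annotation, 691 several and 1555 none. Symbol and gene ID of all 10 genes matched the GRCm38.p6 gene table. Where a gene had several probe sets, the brightest on average was used. Signals under the floor of 12 (25th percentile) were set to it, and log2 ratios were taken with pandas 2.3.3 and numpy 2.4.6 in Python 3.11.15, in steps tested on simulated data. No ratio was taken between 2 signals at the floor.

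All 10 genes are named in every comparison. Of each other list, genes were named among the 3 ratios farthest from 0 per comparison with at least 48 units on the brighter array, and the 3 nearest genes by pattern were taken for each gene. Igfbp6 and the collagen genes come from this rule. Sct, Pcsk1, Gad1, Gad2, Prox1, Stxbp6, Folr1, Slc6a13 and Col1a1 were chosen after their values were seen. The genes and lists were chosen with earlier results of these data known. The 4 alternatives were scaling to the same median, quantile normalization, a floor of 50 and the median over probe sets. A comparison of the precursor proteins was not made here.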

Additional observations from a re-analysis of the deposited data

Results flagged for a closer look

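Npy1r, for a receptor of neuropeptide Y, had log2 ratios of opposite sign after the 11th and the first ECS, 0.35 for 11 ECS over 10 ECS and −0.75 for single ECS over sham, a difference of 1.10 that was not tested. The same 4 signals give 0.74 for 11 ECS over single ECS and −0.36 for 10 ECS over sham. Its second probe set was at or near the floor on all arrays, with signals of 8.4 to 14.2.

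Ttr, a marker of the choroid plexus, had signals of 67.2, 215.9, 103.4 and 76.9 in the sham, single ECS, 10 ECS and 11 ECS arrays. Its log2 ratio was −0.43 for 11 ECS over 10 ECS and 1.68 for single ECS over sham, a difference of −2.11 that was not tested. The same signals give −1.49 for 11 ECS over single ECS and 0.62 for 10 ECS over sham. None of the 9 neuropeptide precursor genes above the floor on all arrays had ratios of opposite sign that both exceeded the probe set SD.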

How the results depend on the processing

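Under 4 alternatives, 53 of 60 counts and medians of the 10 genes moved by less than 1.5 times or the probe set SD, as did 175 of 192 ratios of single genes and all 33 differences of responses, and no called ratio changed sign. These totals include results that could not move. Each of the 10 genes had 1 probe set, so the median over probe sets returned the same values for them. A floor of 50 leaves the ratios of genes with all signals above it unchanged. Scaling to the same median raised the median log2 ratio of the 10 genes for single ECS over sham to 0.33, from the change of scale itself. With a floor of 50 units, at which Cort had no ratio because all its signals were below it, 0 genes were at least 2-fold lower in 11 ECS over 10 ECS, 11 ECS over single ECS and 11 ECS over sham. Their median log2 ratios were then 0.34 for 10 ECS over sham, 0.23 for 11 ECS over single ECS and 0.19 for 11 ECS over sham, and 4 genes, Penk, Npy, Grp and Gal, were at least 2-fold higher in each. Quantile normalization left all counts of the 10 genes as they were, and the median over probe sets could not change them. No paired analysis was possible because each group is 1 array. Signals near the floor limit the ratios of Tac2 (sham and single ECS arrays) and Cort (11 ECS array), and the difference of arrays cannot be told apart from that of treatments.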
